A study of Mus musculus with 21 samples.

Results

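The RNA of 10 ETS transcription factors was followed through acquired resistance to trametinib, an inhibitor of the kinase MEK, and through withdrawal of the drug, in cell lines of pancreatic ductal adenocarcinoma (PDAC) of the mouse. The genes were taken by symbol from the deposited table of normalized counts, in which 10 of 34478 genes are described here. The PEA3 group is made up of Etv1, Etv4 and Etv5, and it was set against 7 other members of the family, Etv6, Ets1, Ets2, Elk3, Elf3, Ehf and Elf4. The study sequenced 21 samples of 6 lines, #3, #4, #6, #7, #9 and #10. Parental cells had never seen the drug. Resistant cells had been raised on increasing doses until they grew at 100x their IC50 and were kept at that dose. P5 and P12 cells were kept off the drug for 5 and 12 passages after resistance had been reached. Parental, resistant and P12 cells came from all 6 lines and P5 cells from #3, #7 and #9. A description label of the P5 samples of #7 and #9 gives 12 passages, whereas title and group read P5, and the name P5 is kept. There is 1 sample for each line and state. The lines serve as replicates, and a p-value measures the spread between these single samples of the lines.

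All groups, the parental cells included, came from tumours of one genotype. Cre stood in 1 allele of Ptf1a (Ptf1a wt/Cre), and both alleles of Trp53 were flanked by loxP sites (Trp53 loxP/loxP). The recombinase is driven from the Ptf1a locus in the developing pancreas, where it deletes part of Trp53. Trp53 RNA was between 178 and 475 normalized counts in the 21 samples, which does not check the deletion, since counts over the whole gene include exons outside the deleted part. Depth, estimated from the step between low values, was 24.1 to 42.7 M reads per sample, and 3 reads, taken as the floor, corresponded to 2.31 to 4.07 normalized counts. Such floors cover counting error only. Of the epithelial markers, Epcam was at 0 in 20 of 21 samples, while Krt8 lay between 73967 and 92917 normalized counts in parental cells of 5 lines. Parental cells of line #9 stood apart, with 546 normalized counts of Krt8 and 816 of Cdh1, against at least 26491 of Cdh1 in the others. RNA was taken from whole cultures, so fewer cells that express a gene and less RNA per cell cannot be told apart.

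ETS factors share a winged helix-turn-helix DNA-binding domain that reads a GGAA core. The PEA3 factors are transcriptional activators at the nuclear end of the MEK-ERK pathway: their genes are held down by the repressor Capicua (Cic), which ERK inactivates, and the proteins are turned over through the ubiquitin ligase Cop1. Elk3 is a ternary complex factor that binds with serum response factor (Srf), Ets1 and Ets2 are activators phosphorylated by ERK, Etv6 is a repressor, Elf3 and Ehf are factors of epithelial cells, and Elf4 is best known from lymphocytes.

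Start-site sequences are shown for the PEA3 genes held in the RefSeq table of promoters and for Elk3, the other member called in resistant cells. Each stretch runs 5′ to 3′ on the strand of the gene, from 250 bases before to 50 bases after a RefSeq start (build GRCm38.p6). The table matched 7 of the 10 members (Etv1, Etv5, Etv6, Ets2, Elk3, Elf3 and Elf4); Etv4, Ets1 and Ehf are named only. Capitals mark the hexamer TGAATG, read on either strand, which is the start of the octamer bound by Capicua. Both listed starts of Etv5 on chromosome 16 (minus strand, chr16:22438319-22438618 and chr16:22439521-22439820) are followed by the upstream start of Etv1 on chromosome 12 (plus strand, chr12:38779832-38780131) and the start of Elk3 on chromosome 10 (minus strand, chr10:93311110-93311409).
Etv5, downstream start: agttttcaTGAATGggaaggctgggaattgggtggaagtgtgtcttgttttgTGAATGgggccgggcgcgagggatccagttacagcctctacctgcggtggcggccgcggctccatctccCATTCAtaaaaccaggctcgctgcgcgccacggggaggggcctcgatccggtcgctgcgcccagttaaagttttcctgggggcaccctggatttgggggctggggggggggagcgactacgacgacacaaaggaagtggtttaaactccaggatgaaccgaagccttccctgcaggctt
Etv5, upstream start: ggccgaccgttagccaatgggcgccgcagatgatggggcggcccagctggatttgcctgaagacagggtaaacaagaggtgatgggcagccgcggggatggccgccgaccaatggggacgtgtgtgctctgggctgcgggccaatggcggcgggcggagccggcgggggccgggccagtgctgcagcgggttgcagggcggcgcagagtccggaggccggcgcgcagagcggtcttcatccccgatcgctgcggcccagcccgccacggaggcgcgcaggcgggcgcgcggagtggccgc
Etv1, upstream start: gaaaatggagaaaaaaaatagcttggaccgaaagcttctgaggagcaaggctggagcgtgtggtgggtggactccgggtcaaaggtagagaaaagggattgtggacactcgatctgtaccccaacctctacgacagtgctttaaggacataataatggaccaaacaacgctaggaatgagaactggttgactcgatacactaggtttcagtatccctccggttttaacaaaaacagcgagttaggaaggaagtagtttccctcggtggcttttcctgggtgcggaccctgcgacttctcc
Elk3: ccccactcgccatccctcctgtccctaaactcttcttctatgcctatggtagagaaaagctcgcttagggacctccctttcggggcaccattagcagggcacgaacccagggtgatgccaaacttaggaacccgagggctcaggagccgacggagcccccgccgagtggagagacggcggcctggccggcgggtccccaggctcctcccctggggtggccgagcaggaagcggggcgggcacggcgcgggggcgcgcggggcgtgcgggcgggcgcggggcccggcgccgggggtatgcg
The downstream start of Etv5 held TGAATG 3 times, beginning at positions -242, -198 and, on the opposite strand, -129 from the start site. However, the last bases of that stretch were not found in a sense transcript of Etv5, nor those of the Elk3 stretch in one of Elk3. The last bases at the upstream starts of Etv5 and Etv1 were found in sense transcripts, and neither of these stretches held the hexamer. The hexamer was chosen after the sequences had been read. At least 1 match was found in 12.7% and at least 3 in 0.17% of 32851 RefSeq promoters of the same length. The 4 Capicua octamers that were searched on both strands, TGAATGAA, TCAATGAA, TGAATGGA and TCAATGGA, had no match in any promoter of the 7 members, against 3.84% of all promoters with 1 or more of them. The ETS motif CCGGAA (14.9% of all promoters) and the CArG box bound by Srf (1.63%) had none either. The AP-1 motif TGANTCA (7.81%) matched once, at position -39 from a start of Elf4. A match is a description of letters and not of binding.

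Etv4 and Etv5 fell in resistant cells of all 6 lines, to at most 4.58 and 18.0 normalized counts. Both rose again in P12, Etv4 to values above the parental cells of the same line in each of the 6 lines. Etv1 was low in parental cells of 5 lines and lay above its parental value in P12 of all 6. Between P12 and parental cells neither Etv4 nor Etv1 was called, and 6.46% of all genes tested were higher in all 6 lines. Among the 7 other members, Elk3 alone was called in the same directions as Etv4 and Etv5. Calls were made with limma on log2(normalized count + 1) over 19300 genes, with thresholds of 0.01 for the adjusted p (Benjamini-Hochberg) and of 1 for the absolute log2 fold change, and all 10 members passed the filter on low values. Between resistant and parental cells 3 of 10 members were called, 3 lower and 0 higher, against 5.3% of all genes tested (2.73% lower). With the cell line as a block 4 members were called, against 10.5% of all genes.

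**Figure D1:**
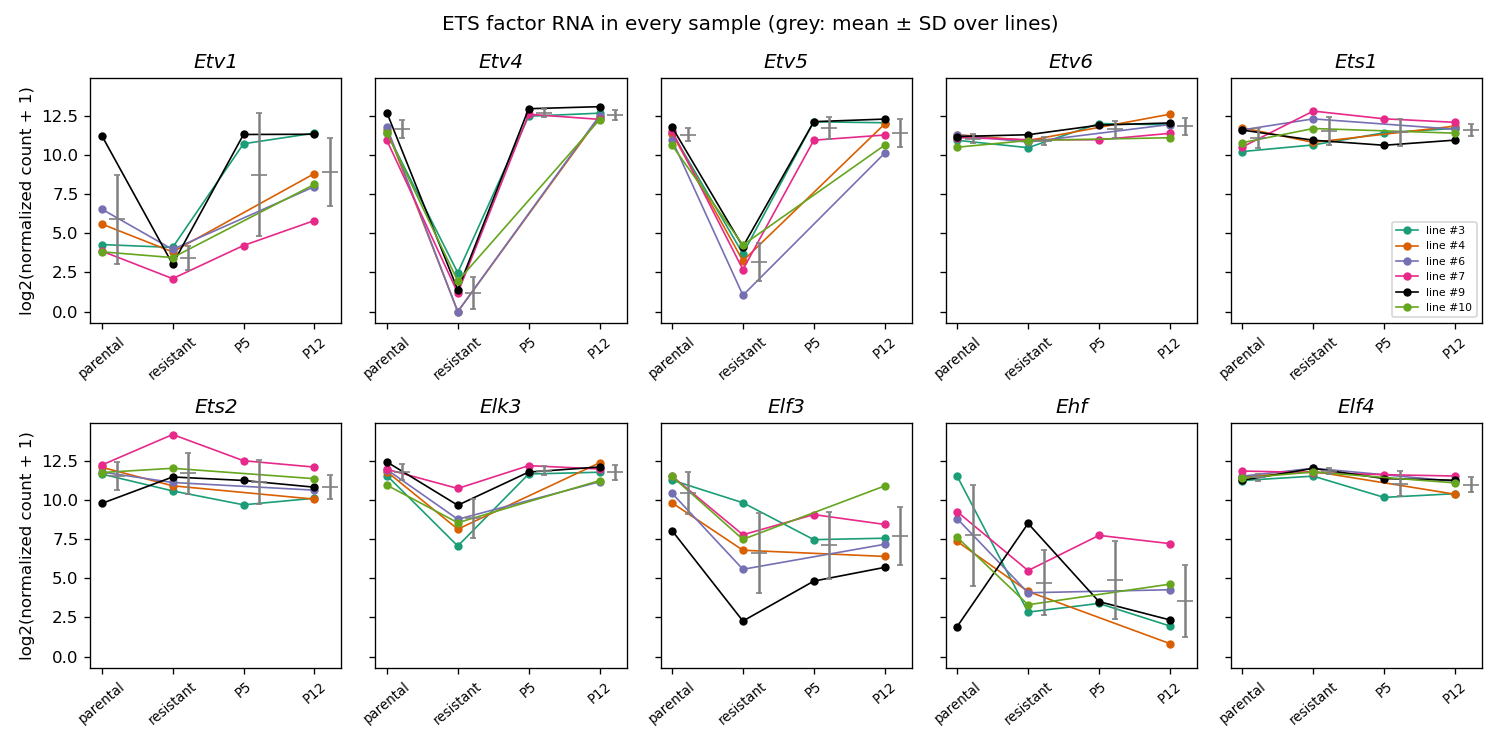
Log2(normalized count + 1) of the 10 ETS factors in the 21 samples, by state on the horizontal axis; each coloured line joins the samples of one cell line (P5 exists for #3, #7 and #9 only) and grey marks give the mean ± SD over lines. Etv4 and Etv5 drop in all 6 resistant samples and are high again in P5 and P12, and Etv1 of line #9 is far above the other parental samples. Etv6 and Elf4 move less than Etv4 and Etv5, between 1400 and 6141 and between 1137 and 4127 normalized counts.

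Etv4 (chromosome 11, 101769742 to 101785371, minus strand, GRCm38) was at 2705 normalized counts in line #3, 3120 in #4, 3444 in #6, 1931 in #7, 6573 in #9 and 2706 in #10 of the parental cells. In resistant cells the same lines had 4.58, 0, 0, 1.28, 1.62 and 2.86 normalized counts. P12 cells of these lines had 6431, 5437, 5789, 4898, 8573 and 4827. Resistant samples lay below all parental samples without overlap (3.16% of all genes tested did), and 4 of 6 were at or under the floor of 3 reads. In lines #4 and #6, whose resistant samples were at 0, parental cells were 766-fold and 959-fold above that floor. The floor is an estimate, since not all low values fell on steps of 1 read, so these folds are not firm lower bounds. The fitted log2 fold change of resistant against parental cells was -10.46 (SE 0.37, limma adjusted p = 5.09e-13), lower in 6 of 6 lines. Because the resistant values were near 0, this size depends on the pseudocount and was -8.37 with a pseudocount of 8.

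Etv5 (chromosome 16, 22381309 to 22439719, minus strand) was also lowest in the resistant state in every line. Parental cells had 2725 normalized counts in line #3, 2608 in #4, 1960 in #6, 2928 in #7, 3486 in #9 and 1561 in #10. Resistant cells of these lines had 11.9, 8.43, 1.06, 5.41, 16.7 and 18.0. The groups did not overlap, and in contrast to Etv4 only the sample of line #6 was under the floor. The log2 fold change was -8.09 (SE 0.48, limma adjusted p = 1.84e-09), lower in 6 of 6 lines. P12 cells had 4210, 3992, 1099, 2450, 4954 and 1565 in the same order of lines. Parental and P12 values of Etv5 overlapped, with P12 higher in 4 of 6 lines.

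Etv1 (chromosome 12, 38779380 to 38870484, plus strand) differed from its relatives in the parental cells. It was at 18.4 normalized counts in line #3, 47.0 in #4, 91.8 in #6, 13.5 in #7 and 13.1 in #10, but at 2396 in line #9. Resistant cells held 16.1, 12.98, 14.6, 3.30, 7.13 and 9.88 in lines #3, #4, #6, #7, #9 and #10. In P12 the values were 2666, 445, 250, 55.0, 2534 and 276. All 6 P12 samples lay above all resistant samples, while parental and resistant values overlapped. Line #9 lost nearly all of its Etv1 on the drug and regained it, a log2 difference of -8.20, whereas lines #3 and #10 had little to lose, with -0.18 and -0.37. The fall in resistant cells was not called (log2 fold change -2.48, SE 1.29, limma adjusted p = 0.213). All 6 lines were lower, as 9.49% of all genes tested were.

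Of the ternary complex factors, Elk3 (chromosome 10, 93247414 to 93311135, minus strand) fell with the PEA3 genes, although not to the floor. Parental cells had 2988, 3538, 3885, 3931, 5446 and 1951 normalized counts in lines #3, #4, #6, #7, #9 and #10. Resistant cells had 132, 278, 432, 1686, 803 and 370, and P12 cells 3456, 5240, 2263, 3987, 4360 and 2387. Every resistant sample lay below every parental and P12 sample, with line #7 keeping the most and line #3 the least. The log2 fold change was -2.95 (SE 0.43, limma adjusted p = 0.000222).

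The epithelial factors Elf3 and Ehf varied widely between lines within a state. Elf3, which in parental cells ranged from 261 in line #9 over a median of 1899 to 2914 normalized counts in line #7, was at 897 in resistant cells of line #3, 109 in #4, 46.4 in #6, 217 in #7, 3.82 in #9 and 177 in #10. Resistant cells were lower than their own parental cells in 6 of 6 lines (9.49% of all genes tested were), but the groups overlapped, because parental line #9 was below resistant line #3. The log2 fold change of -3.81 (SE 1.08) was not called without the block (limma adjusted p = 0.0222) and was called with the cell line as a block (limma adjusted p = 0.000464) and in the fit without line #9 (log2 fold change -3.41, limma adjusted p = 0.00989). Parental cells of line #3 held 2895 normalized counts of Ehf, followed by 161 in #4, 443 in #6, 603 in #7, 2.78 in #9 and 194 in #10. In resistant cells the values were 6.15, 16.8, 15.8, 43.9, 359 and 8.90. Ehf was thus lower on the drug in 5 lines and higher in line #9 alone, whose parental sample was under the floor. The log2 fold change was -3.01 (SE 1.39, limma adjusted p = 0.155) with all lines and -4.92 (limma adjusted p = 0.00867) without line #9.

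The remaining 4 members, Etv6, Ets1, Ets2 and Elf4, stayed at high levels on the drug and none was called. Etv6 was at 1428 to 2491 normalized counts in parental and 1400 to 2478 in resistant cells (log2 fold change -0.15, SE 0.23, limma adjusted p = 0.729). Elf4 was higher in resistant cells in 5 of 6 lines, with a median of 3540 against 2734 normalized counts (log2 fold change 0.36, SE 0.23, limma adjusted p = 0.312). Ets1 was higher in 4 and lower in 2 lines, from 1580 to 7052 normalized counts in resistant cells (log2 fold change 0.46, SE 0.38, limma adjusted p = 0.467). Ets2 moved up in 3 lines and down in 3, and resistant cells of line #7 held 18304 normalized counts against 1513 to 4116 in the others. Its log2 fold change was 0.16 (SE 0.58, limma adjusted p = 0.888) and turned to -0.19 without line #7 and to -0.14 without line #9.

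Taken per line, the PEA3 genes and the others were far apart on the drug by their medians. Single genes overlapped, as in line #3, where Etv1 was at -0.18 and Ehf at -8.66. The median log2 difference over the 3 PEA3 genes was between -9.89 and -6.36 in the 6 lines, with a median of -8.16, and that over the 7 others was between -1.18 and 0.27, with a median of -0.40. The difference between both medians was -9.23 to -6.63 and had the same sign in 6 of 6 lines. Within the PEA3 group Etv1 was the exception, and among the others Elk3, Elf3 and Ehf were, so that the median of either group stands for its larger number of genes. The median over all genes tested was -0.005. No test was made of the group difference, since the members were chosen with results of these data known.

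**Figure D2:**
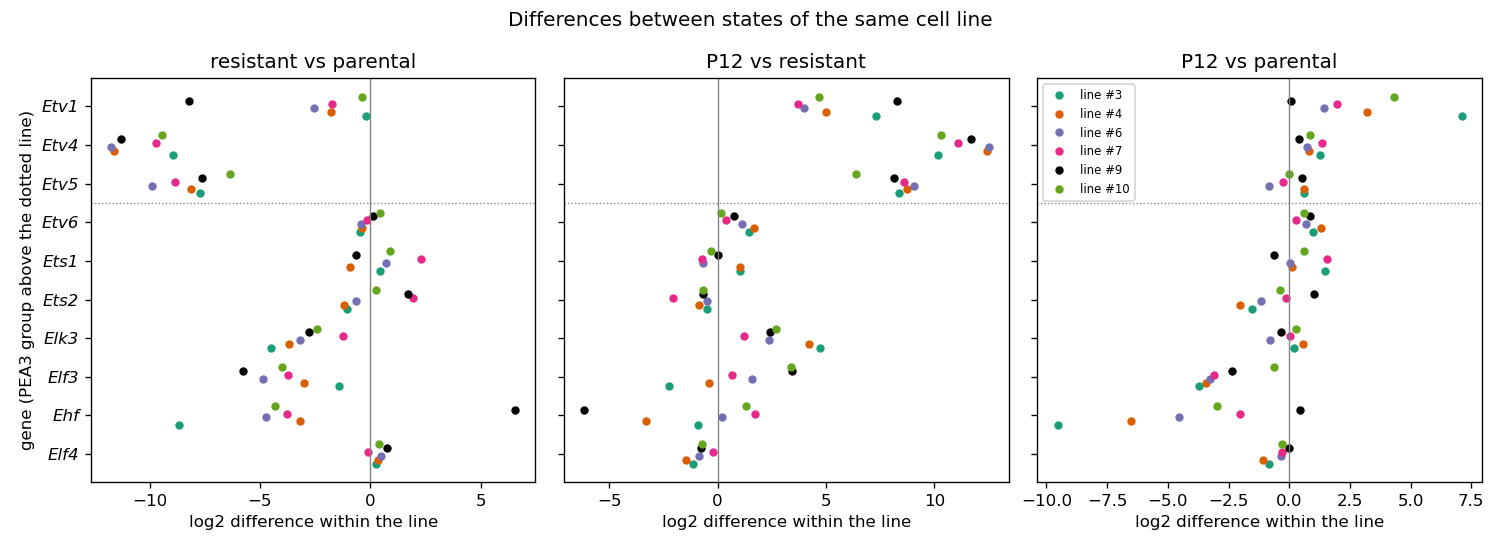
Log2 difference between states of the same cell line for each gene, in resistant against parental (left), P12 against resistant (middle) and P12 against parental cells (right); points are the 6 lines and the dotted line divides the PEA3 group from the 7 others. Etv4 and Etv5 lie between -11.75 and -6.36 on the left, and Etv4 lies above 0 in all 6 lines on the right. Ehf of line #9 lies above 0 on the left and on the right, unlike the other lines.

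Withdrawal for 12 passages was compared with the resistant state next. This comparison shares the resistant samples with the one above, so that both are not independent. In P12, 3 of 10 members were called higher than in resistant cells and 0 lower, against 2.13% of all genes tested (1.28% higher). They were Etv4 (log2 fold change 11.35, SE 0.37, limma adjusted p = 1.06e-13), Etv5 (8.20, SE 0.48, limma adjusted p = 1.91e-09) and Elk3 (2.95, SE 0.43, limma adjusted p = 0.000492). With P12 and resistant samples alone in the fit, Elk3 was just outside the threshold (limma adjusted p = 0.0117). Etv1 was higher in P12 in 6 of 6 lines with no overlap, as 1.39% of all genes tested were. Its log2 fold change of 5.49 (SE 1.29) was not called without the block (limma adjusted p = 0.0147) and was called with it (limma adjusted p = 0.00143) and without line #7 (log2 fold change 5.85, limma adjusted p = 0.00791). With the block 4 members were called, against 4.52% of all genes.

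Etv6 and Elf4 shifted by less, in opposite directions. Etv6 in P12 was between 2171 and 6141 normalized counts with a median of 3867, above the matching resistant sample in 6 of 6 lines (7.77% of all genes tested). Its log2 fold change was 0.93 (SE 0.23, limma adjusted p = 0.0206). Elf4 was between 1308 and 2923 with a median of 2236, lower than in resistant cells in 6 of 6 lines (8.2% of all genes tested), with a log2 fold change of -0.85 (SE 0.23, limma adjusted p = 0.0311). Neither reached the fold limit. Ets2 was lower in P12 in 6 of 6 lines as well, at -0.87 (SE 0.58, limma adjusted p = 0.452), and Ets1 went either way (0.07, SE 0.38, limma adjusted p = 0.949). Its sign turned without line #3 or line #4. Elf3 (1.07, SE 1.08, limma adjusted p = 0.65) and Ehf (-1.19, SE 1.39, limma adjusted p = 0.707) showed no common direction over the lines.

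What remained after 12 passages is seen against the parental cells. By limma 0 of 10 members were called, with and without the block, against 0.114% of all genes tested (0.523% with the block). An unadjusted limma p below 0.05 was reached by 6 members. The share of all genes at that unadjusted level was not computed, so counts at this level, here and below, have no background to be read against. Etv4 was nevertheless higher in P12 in 6 of 6 lines, as 6.46% of all genes tested were, by 1.30-fold in line #9 to 2.54-fold in line #7 (log2 fold change 0.89, SE 0.37, limma adjusted p = 0.255). Etv1 was also higher in 6 of 6 lines, by 1.06-fold in line #9, 2.72-fold in #6, 4.06-fold in #7, 9.47-fold in #4, 21.1-fold in #10 and 145-fold in #3 (log2 fold change 3.01, SE 1.29, limma adjusted p = 0.271). Etv6 was higher in 6 of 6 lines, at a log2 fold change of 0.78 (SE 0.23, limma adjusted p = 0.12). Etv5 (0.11, SE 0.48, limma adjusted p = 0.932) and Elk3 (-0.002, limma adjusted p = 0.999) had no common direction.

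Elf3 and Elf4 were below parental cells in P12 in 6 of 6 lines, as 6.96% of all genes tested were. Elf3 in P12 had 186 normalized counts in line #3, 82.8 in #4, 142 in #6, 343 in #7, 50.6 in #9 and 1886 in #10. Line #10 rose from 177 on the drug towards its parental 2889, while lines #3 and #4 were lower off the drug than on it. The log2 fold change of Elf3 was -2.73 (SE 1.08, limma adjusted p = 0.228) and that of Elf4 -0.48 (SE 0.23, limma adjusted p = 0.324). Ehf in P12 ranged from 0.779 in line #4 over a median of 11.1 to 147 normalized counts in line #7 (log2 fold change -4.20, SE 1.39, limma adjusted p = 0.157), higher than parental cells in line #9 alone.

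Etv4 and Etv5 were high again in P5 cells of all 3 lines. Etv4 was at 5618 normalized counts in line #3, 6127 in #7 and 7834 in #9, and Etv5 at 4402, 1947 and 4418. Etv1 was at 1662 in line #3 and 2508 in line #9, yet at 17.6 in line #7, close to the parental 13.5 of that line. Against resistant cells 3 of 10 members were called higher, Etv4, Etv5 and Elk3, and 0 lower, against 0.378% of all genes tested (0.29% higher). Elk3 (log2 fold change 3.05, SE 0.53, limma adjusted p = 0.00487) was no longer called when line #3, #4, #6, #9 or #10 was left out, at limma adjusted p values of 0.0161 (without #10) to 0.0417 (without #3). Nor was Elk3 called with P5 and resistant samples alone in the fit (limma adjusted p = 0.126). Without P5 of lines #7 and #9 its log2 fold change was 2.83. With P5 and resistant samples alone and the cell line as a block, 3 pairs are left. There 0 members were called, at limma adjusted p values of 0.15 for Etv4 and Etv5 and 0.377 for Elk3. Between P5 and parental cells limma called 0 of 10 members, against 0.0259% of all genes tested, and 2 members had an unadjusted p below 0.05.

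The share of the PEA3 genes in all ETS RNA was described per kb of the longest protein-coding transcript (GENCODE M21). Levels of different genes, and so the shares below, depend on that choice of transcript. By the median transcript length, Elk3 in parental cells had a mean of 2712 normalized counts per kb and Etv4 of 1436. The shares were not computed with that length. Summed over 26 ETS genes, the PEA3 genes made up 15.3% (line #7) to 38.6% (line #9) in parental cells with a median of 20.5%. In resistant cells the share was 0.0228% to 0.169%. In P12 it was 27.1% to 45.5%, above the matching parental share in 6 of 6 lines, and in P5 28.1%, 40.6% and 44.1% in lines #7, #3 and #9. The pool itself was 8402 to 10323 normalized counts per kb in parental cells. It was 4310 to 5485 in resistant cells of 5 lines and 10508 in those of line #7, where Ets1 and Ets2 together held 58.0%.

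**Figure D3:**
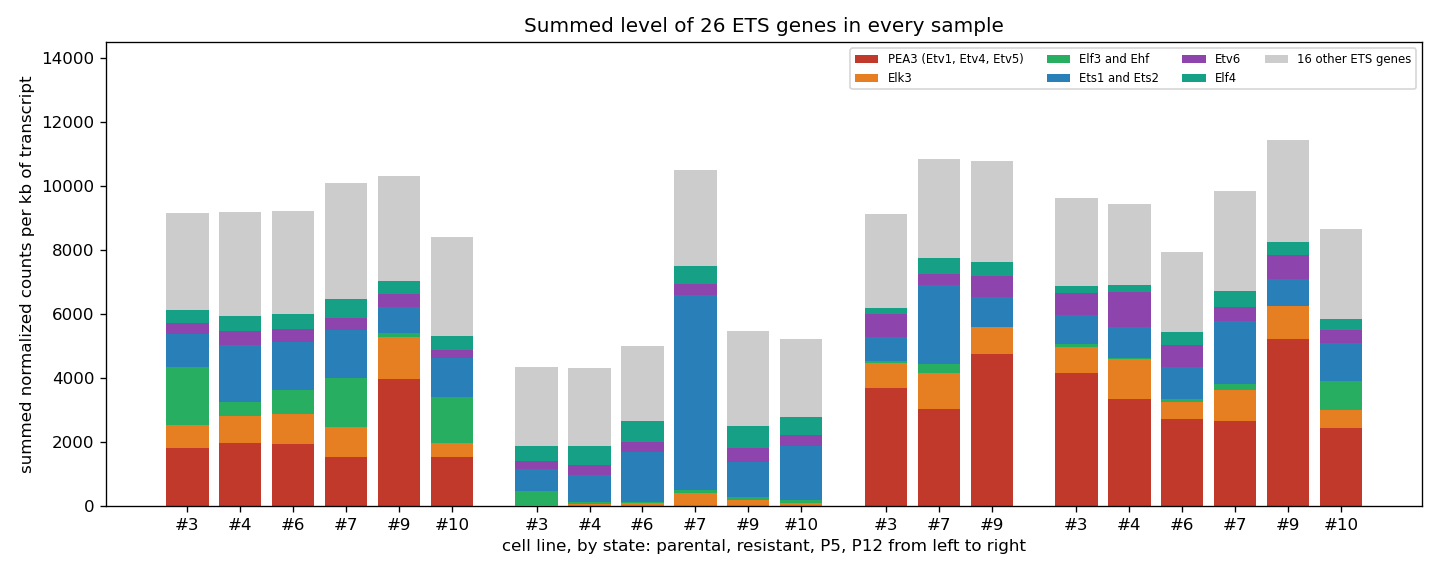
Summed normalized counts per kb of transcript of 26 ETS genes in every sample (bars, starting at 0), grouped by state and labelled by cell line; colours give the PEA3 group, the other members described here and 16 further ETS genes in grey. The PEA3 part holds 15.3% to 38.6% of the parental bars, under 1% of the resistant bars and 27.1% to 45.5% of the P12 bars; resistant line #7 carries a large Ets1 and Ets2 part.

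Within the PEA3 group Etv4 gave most of the RNA per kb in parental and P12 cells. It held 52.2% to 74.1% in parental and 64.7% to 88.5% in P12 cells, followed by Etv5 with medians of 29.6% and 23.5%. In resistant cells, where all 3 genes were low, Etv4 held 0% to 26.04%, Etv5 10.7% to 70.5% and Etv1 18.2% to 89.3%. Etv1 held 0.13% to 0.717% in parental cells of 5 lines and 9.14% in line #9, and in P12 7.39% in line #9 and 9.77% in line #3. By mean level per kb in parental cells, Etv4 stood first with 1425 ± 680 (SD, n = 6), followed by Elk3 with 860 ± 275, Ets2 with 857 ± 346, Elf3 with 855 ± 532 and Etv5 with 640 ± 173. Then came Elf4 with 461 ± 74.7, Ets1 with 455 ± 189, Etv6 with 373 ± 69.2, Ehf with 160 ± 244 and Etv1 with 65.4 ± 147. Neighbours in this order differed by less than the larger SD of the pair, except Etv5 and Elf4, which differed by slightly more. The order and the shares depend on the transcript taken. With the median transcript length Elk3 stood first with 2712 normalized counts per kb, above Etv4 with 1436. Ets2 then had 1383, Ets1 1132, Ehf 697 and Etv1 250.

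The genes whose pattern over the 21 samples was most like that of a member, by Pearson r of log2 values, were these. For Etv4 they were Etv5 (r = 0.98), the ERK feedback inhibitor Spry4 (r = 0.98), the immediate early gene Egr1 (r = 0.96), Ptpn9 (r = 0.94) and 3930402G23Rik (r = 0.93). The resistant samples form a separate cluster in these pairs, and over the 15 other samples r was 0.37 for Etv4 with Etv5, 0.24 with Spry4 and 0.70 with Egr1. For Etv1 they were Egr3 (r = 0.94), Egr2 (r = 0.91), Adgra2 (r = 0.90), Carmn (r = 0.90) and Galnt15 (r = 0.89). Here the likeness did not rest on the resistant samples, since r over the 15 others was 0.95 for Egr3 and 0.92 for Egr2. Egr3, which encodes a zinc finger factor of the early growth response, was at 1962 normalized counts in parental cells of line #9 and at 4.36 to 81.8 in those of the 5 other lines. In P12 it was at 1473 in line #3, 138 in #4, 78.4 in #6, 39.9 in #7, 2200 in #9 and 116.2 in #10, so lines #3 and #9 were the highest for Egr3 as for Etv1.

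**Figure D4:**
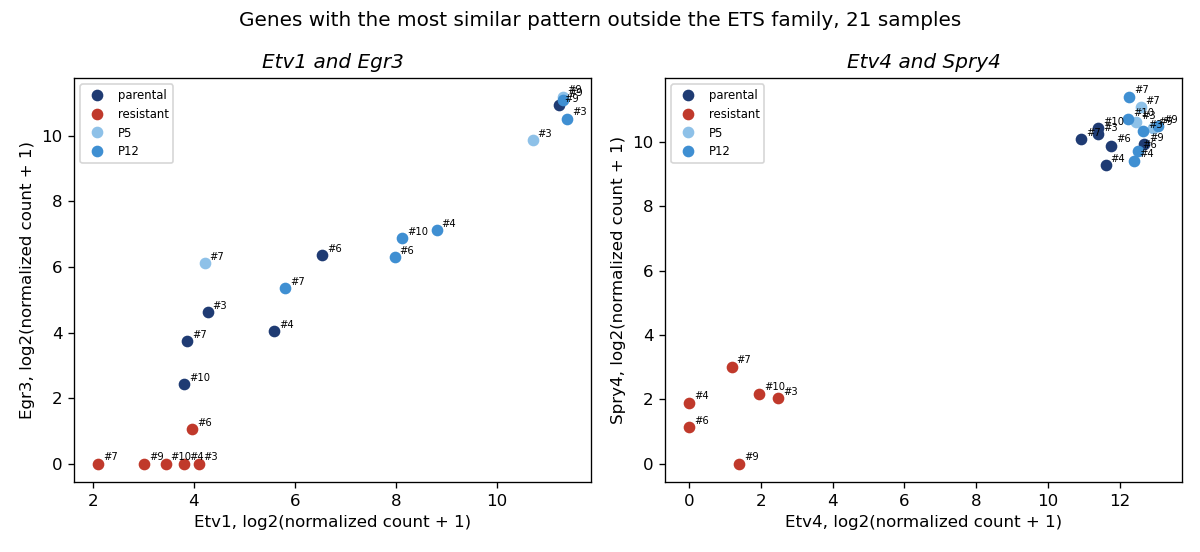
Log2(normalized count + 1) of Etv1 against Egr3 (left) and of Etv4 against Spry4 (right) in the 21 samples, coloured by state and labelled by line. Etv1 and Egr3 spread along a line from the resistant samples to lines #3 and #9 off the drug and parental line #9, whereas Etv4 and Spry4 form a low cluster of 6 resistant and a high cluster of 15 other samples.

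For Elk3 the most similar genes were Bcl2 (r = 0.95), Ptpn9 (r = 0.95), Tiam2 (r = 0.94), Tnfrsf22 (r = 0.94) and Arhgef40 (r = 0.92), and over the 15 samples without the resistant ones r was 0.67 for Bcl2. Elf3 was most like Pear1 (r = 0.93), AI661453 (r = 0.93), B4galt6 (r = 0.92), Spint2 (r = 0.91) and B3gnt3 (r = 0.90). The samples in these values share lines and states, and the r are descriptions. Over the 21 samples r with Etv4 was 0.67 for Etv1 and 0.98 for Etv5, and over the 15 without the resistant ones it was 0.81 for Etv1 and 0.37 for Etv5, so the order of both turned. Elf4 ran against Etv1 (r = -0.73).

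Genes around the PEA3 group were described from lists. The rest of the ETS family had 10 of 17 genes tested, of which 0 were called in resistant against parental cells by limma (4 at an unadjusted p below 0.05), with a median log2 fold change of -0.23. The largest were Spib (1.69, limma adjusted p = 0.0932), Etv3 (-0.63, limma adjusted p = 0.0527) and Erf (-0.58, limma adjusted p = 0.0262). The regulators of the PEA3 factors, Cic, its partners Atxn1 and Atxn1l, and the ubiquitin ligase parts Cop1 (listed as Rfwd2) and Det1, showed 0 of 5 limma calls, 1 unadjusted p below 0.05 and a median of -0.24. The largest were Det1 (-0.45, limma adjusted p = 0.0663), Atxn1 (0.44, limma adjusted p = 0.508) and Cop1 (-0.26, limma adjusted p = 0.25). Cic itself was at -0.24 (SE 0.14, limma adjusted p = 0.284), which concerns its RNA and not its protein.

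Most ERK output genes fell in resistant cells, with a median log2 fold change of -3.50. There 6 of 8 were called lower and 0 higher, against 2.73% of all genes tested called lower. The 6 were the phosphatases Dusp4 (-7.80) and Dusp6 (-7.31), the feedback inhibitors Spry2 (-3.89) and Spry4 (-8.27), Phlda1 (-3.12) and the cyclin Ccnd1 (-2.65). With the block the receptor Epha2 (-1.88, limma adjusted p = 0.00831) was called lower too, 7 of 8, against 10.5% of all genes called in either direction. In P12 against resistant cells 5 of 8 were called higher, with a median of 3.03, against 1.28% of all genes tested. Ccnd1 (2.01) was not among the 5 (limma adjusted p = 0.0131), but was called with the block (limma adjusted p = 0.00642), 6 of 8. With the block 4.52% of all genes were called in either direction. Between P12 and parental cells limma called 0 of 8, with 3 at an unadjusted p below 0.05. Of Srf, its cofactors and its targets, 4 of 9 were called lower in resistant cells with a median of -2.24, namely Egr1 (-5.81), Egr3 (-5.18), Fos (-2.44) and Fosb (-1.96), and with the block also Ier2 (-2.24, limma adjusted p = 0.00894). In P12 Egr1 (7.01), Egr2 (4.64) and Egr3 (7.70) were called higher than in resistant cells, and with the block also Fosb (1.74, limma adjusted p = 0.0072).

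Of 9 tested genes that are reported as PEA3 targets, limma called 0 in resistant cells, with 3 at an unadjusted p below 0.05 and a median log2 fold change of -0.74. With the block 1 was called lower, Ptgs2 (limma adjusted p = 0.00557), against 10.5% of all genes called in either direction. The largest were Ptgs2 (-3.60, SE 1.27, limma adjusted p = 0.0608), which encodes cyclooxygenase 2, and the matrix metalloproteases Mmp13 (-3.30, SE 1.66, limma adjusted p = 0.193) and Mmp3 (-2.30, SE 1.83, limma adjusted p = 0.439). In P12 limma called 0 of 9 against resistant cells (5 at an unadjusted p below 0.05) and 0 of 9 against parental cells (2 at that level).

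**Figure D5:**
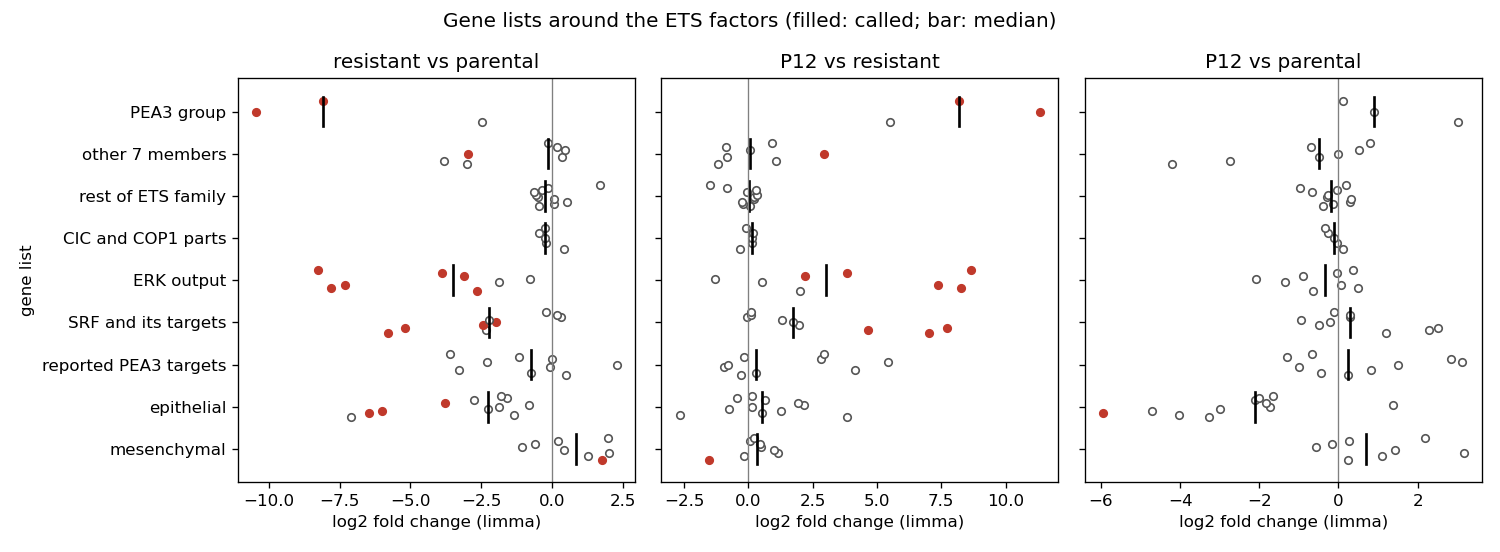
Log2 fold changes (limma) of single genes in 9 lists, in resistant against parental (left), P12 against resistant (middle) and P12 against parental cells (right); filled points were called, open points were not, and bars mark list medians. ERK output genes spread mostly on the same side as Etv4 and Etv5 in the left and middle panels, with medians of -3.50 and 3.03. The medians of the rest of the ETS family and of the Capicua and Cop1 genes stay near 0. Single genes such as Spib lie further out, at 1.69 on the left and -1.49 in the middle.

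Markers of cell identity moved with the members in part. Of 11 epithelial genes tested 3 were called lower in resistant cells, Cldn4 (-6.46), Cldn7 (-6.00) and Klf5 (-3.77), with a median of -2.25. Of all genes tested 2.73% were called lower. With the block 7 epithelial genes were called lower, Cdh1 (-7.11), Krt8 (-1.81), Krt18 (-2.76) and Esrp2 (-1.88) in addition. The block also raised the share of all genes called in either direction from 5.3% to 10.5%. In P12 against parental cells Cldn4 (-5.94, limma adjusted p = 0.00931) was called lower, 1 of 11, with a median of -2.11, and with the block Cldn7 (-4.71) was too, 2 of 11. The share of all genes called in that comparison was 0.114%, and 0.523% with the block. The summed epithelial markers were 18879 to 258462 normalized counts in parental, 759 to 214210 in resistant and 1589 to 202681 in P12 cells. Of 8 mesenchymal genes 1 was called, Cdh2, higher in resistant cells (1.77) and lower in P12 than in resistant cells (-1.52). Their sum was 66380 to 252386 in parental, 94424 to 339021 in resistant and 79708 to 487824 in P12 cells. The medians of this sum were 143642, 198846 and 206480, so unlike Cdh2 it was not lower in P12 than in resistant cells by the median.

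Among markers of other cell types, the fibroblast genes summed to 96.3 to 10387 normalized counts in parental, 1896 to 503969 in resistant and 227 to 124046 in P12 cells. Dcn (11.00, limma adjusted p = 0.00117) was the 1 of 6 called in resistant cells, and with the block Col1a1 (5.19) was too, 2 of 6. Of all genes tested 5.3% were called there, and 10.5% with the block. Of 4 endothelial genes Tek was called, higher in resistant (5.90) and lower in P12 than in resistant cells (-5.84), and the defining Pecam1 was between 9.65 and 74.0 normalized counts in the 21 samples. With the block Pecam1 was called higher in P12 than in resistant cells (1.39, limma adjusted p = 0.00463), and Dcn lower (-6.26, limma adjusted p = 0.00964). Of the 2 immune genes tested limma called 0 in resistant cells (1 at an unadjusted p below 0.05), the 5 immune genes in the table summed to 131 to 413 normalized counts in the 21 samples, and Ptprc was between 3.02 and 20.01. The part of these cell type markers in the changes of Elf3, Ehf and Elk3 was not tested. In line #9, whose parental cells had little Cdh1 and Krt8, the log2 differences of Etv4 and Etv5 between resistant and parental cells were -11.29 and -7.62, within the range of the other 5 lines. For Etv4 that place rests on the pseudocount, since resistant cells of lines #4 and #6 were at 0. With values under the floor set to 3 reads, Etv4 fell 1758-fold in line #9 and 591-fold to 959-fold in the other 5.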

How the data were processed

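The deposited table holds signal values, which the authors made by trimming reads with Skewer, quantifying transcripts with salmon 0.12 against mm10, summing them to genes with TXImport and normalizing the counts with DESeq2 1.18. Whole reads could not be recovered, since 22.4% to 64.5% of low values fell on multiples of the step of 1 read, so count tests were not run. More than 1 sequencer model was used and samples are not assigned to them here, so a sequencing batch cannot be told apart from line or state.

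A pseudocount of 1 was added before taking log2. Genes with at least 10 normalized counts in at least 3 samples (19300 of 34478) were tested with limma 3.58.1 (R 4.3.3; lmFit, contrasts, eBayes with trend) in one fit of all 21 samples, and p-values were adjusted over all of them. Steps were tested on simulated data. Groups and lines came from the sample labels, and no column was left out. A further allele shared by all groups is not reported here.

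States of one line come from the same cell line and are paired. With state means subtracted, the mean r within a line was 0.241 (parental and resistant), 0.457 (resistant and P12) and 0.316 (parental and P12), against -0.046, -0.09 and -0.064 between different lines. The fit with the line as replicate block was an alternative. Others were pseudocounts of 0.5 and 8, other filters, upper-quartile rescaling, limma without a trend, an adjusted p of 0.05, fits of 2 states only, leaving out each line, and the median transcript length.

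The members and lists were chosen with earlier results of these data known. Besides the 10 members, the text names the called genes of each list or, where none was called, the 3 with the largest change in resistant cells, and the 5 genes most like a member; values of markers that check the samples, and the genes called with the block (comparisons with P5 aside), were added. Lists were recalled from general knowledge. Lengths and coordinates are from GENCODE M21 (GRCm38), promoters from RefSeq. Python 3.11.15, numpy 2.4.6, pandas 2.3.3 and matplotlib 3.10.9 were used.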

Additional observations from a re-analysis of the deposited data

Results flagged for a closer look

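Of 30 groups of 6 samples, formed by the 10 members in parental, resistant and P12 cells, 8 held a sample set apart from the other 5, with a gap to its nearest neighbour above 0.625 of the whole range. For normally spread values chance alone flags about 1 in 20 groups. That rate need not hold for these raw counts, where each of the 8 flagged samples was the highest, so no excess over chance is read from them. On log2 values 1 of the 8 remained, Etv1 in parental cells.

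Line #9 gave 3 of them. Etv1 was at 2396 normalized counts in its parental cells, against 13.1 to 91.8 in the others, Etv4 at 6573 in its parental cells, against 1931 to 3444, and Ehf at 359 in its resistant cells, against 6.15 to 43.9. Line #7 gave Ets2 in resistant cells at 18304, against 1513 to 4116, and Ehf in P12 at 147, against 0.779 to 23.6. Line #3 gave Elf3 in resistant cells at 897, against 3.82 to 217, and Ehf in parental cells at 2895, against 2.78 to 603. Line #10 gave Elf3 in P12 at 1886, against 50.6 to 343. Each of these samples was the highest of its group, and a cause was not tested.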

How the results depend on the processing

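The calls of Etv4 and Etv5 in resistant against parental and in P12 against resistant cells kept direction and side of the threshold under all alternatives run. Without line #9, 5 members were called in resistant against parental cells (range over lines left out 3 to 5), Ehf and Elf3 being added. In P12 against resistant cells 6 were called at an adjusted p below 0.05 with no fold limit (3 to 4 with a line left out), Etv1, Etv6 and Elf4 being added. In P5 against resistant cells 0 were called with both states alone and the replicate block, which leaves 3 pairs, and 2 to 3 with a line left out. For these alternatives the share of all genes called was not computed, so their counts of members have no background to be read against. The block changed the calls of Elf3 and Etv1 as given above and of no other member. Etv1 was also called in P12 with P12 and resistant samples alone (limma adjusted p = 0.00824) and without P5 of lines #7 and #9 (0.00799), and Elk3 was not called in P5 without a filter on low values (0.0112). Means in place of medians over genes gave -6.97 for the PEA3 genes and -1.48 for the 7 others in resistant against parental cells, and 1.28 for the PEA3 genes in P12 against parental cells.

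The signs that turned belonged to members that were not called. Upper-quartile rescaling gave 0.0475 for Elk3 (P12 against parental) and 0.0202 for Ets1 (P5 against resistant). The replicate block gave 0.0485 for Ets1 and -0.18 for Ehf (P5 against resistant) and -0.14 for Elk3 (P5 against parental), and with the compared states alone -0.73 for Ehf and -0.11 for Elk3. Without P5 of lines #7 and #9, where the lone P5 sample is assumed to vary like the other groups, Ehf was at -1.33 and Elk3 at -0.12. With lines left out, resistant against parental gave -0.19 to 0.43 for Ets2, P12 against resistant -0.13 to 0.23 for Ets1 and P12 against parental -0.12 to 0.15 for Elk3. P5 against resistant gave -0.26 to 0.21 for Ets1, -0.24 to 0.96 for Elf3 and -1.12 to 1.59 for Ehf, and P5 against parental -0.94 to 0.35 for Ets2, -0.17 to 0.89 for Ets1 and -0.0623 to 0.28 for Elk3. The causes were not tested. Etv4 was at or under the floor of 3 reads in 4 of 6 resistant samples and Etv5 in 1, and there depth limits the size of the fold change.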
